A study of Mus musculus with 2 samples.

Results

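Ribosome footprints were read on 10 genes for proteoglycans and glycoproteins of the brain extracellular matrix: the lecticans Ncan, Bcan, Vcan and Acan, the link protein gene Hapln1, the tenascins Tnc and Tnr, reelin (Reln), and the SPARC family members Sparc and Sparcl1. They were chosen by name, with no measured value in the rule, and hold 10 of the 45578 genes and 50 of the 109463 transcripts in the deposited count table. The libraries came from 2 control brains, replicates 1 and 2 of 1 group, taken at postnatal day 5 from FVB mice that the labels call heterozygous Taiwanese mice. Both animals had the genotype Smn+/-; SMN2tg/0, that is 1 disrupted copy of mouse Smn and a human SMN2 transgene, so no wild-type brain is among them. Polysomes were isolated on a sucrose gradient and digested with RNase I, and protected fragments of 25 to 35 nucleotides were sequenced. There is no contrast between conditions. Matched RNA-seq was not used here, which means that translation per mRNA cannot be read from the levels below.

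The extracellular matrix of the brain is built on hyaluronan, a long sugar chain to which lecticans bind through their N-terminal globular domain. Link proteins such as Hapln1 lock lectican and hyaluronan together, and tenascin-R, through its several arms, joins the other ends of the lecticans to each other. In early postnatal brain this matrix is still of the loose juvenile kind, and the dense perineuronal nets that wrap parvalbumin neurons and are rich in aggrecan form later. Reelin and the SPARC proteins are secreted too, but act as signals and as modulators of cell contact rather than as scaffolds.

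The table assigned 1866831 footprints to replicate 1 and 5261878 to replicate 2, so replicate 2 was 2.82 times as deep and counts in it are the more precise. Neuron markers summed to 5830 and 4723 CPM (counts scaled to the library total) in replicates 1 and 2, with Stmn2 highest, and astrocyte and radial glia markers to 3261 and 3058 CPM, with Fabp7 highest; both fit the labelled tissue. None of the markers in the 12 cell type lists was at 0 in both libraries. A count of 0 allows a true level of up to 3 counts, or 1.61 CPM for the first library and 0.570 CPM for the second. In whole brain, fewer cells of a type and less RNA per cell cannot be told apart. Intervals and p-values below cover counting error in these 2 libraries only, and PCR copies are not independent molecules.

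The 10 genes held 7131 footprints in replicate 1 and 16832 in replicate 2. That was 0.382% of the first library (exact 95% Clopper-Pearson interval 0.373 to 0.391%) and 0.320% of the second (0.315 to 0.325%), a mean of 0.351% ± 0.0439 (SD, n = 2). Sparc, Sparcl1, Ncan and Bcan held 82.3% of these footprints in replicate 1 and 69.2% in replicate 2. Because coding sequences differ in length, genes are compared below by their level, the CPM divided by the kilobases of the longest annotated coding sequence. The median level of the 10 genes was 25.8 CPM per kb in replicate 1 and 35.8 in replicate 2, against 22.02 and 24.6 for the 13349 coding genes whose mean count reached 10. In the mean of both libraries 6 of the 10 lay above the median of coding genes (23.5 CPM per kb) and 4 above their percentile 90. Of these 4, Bcan was above percentile 90 in replicate 1 and below it in replicate 2.

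**Figure D1:**
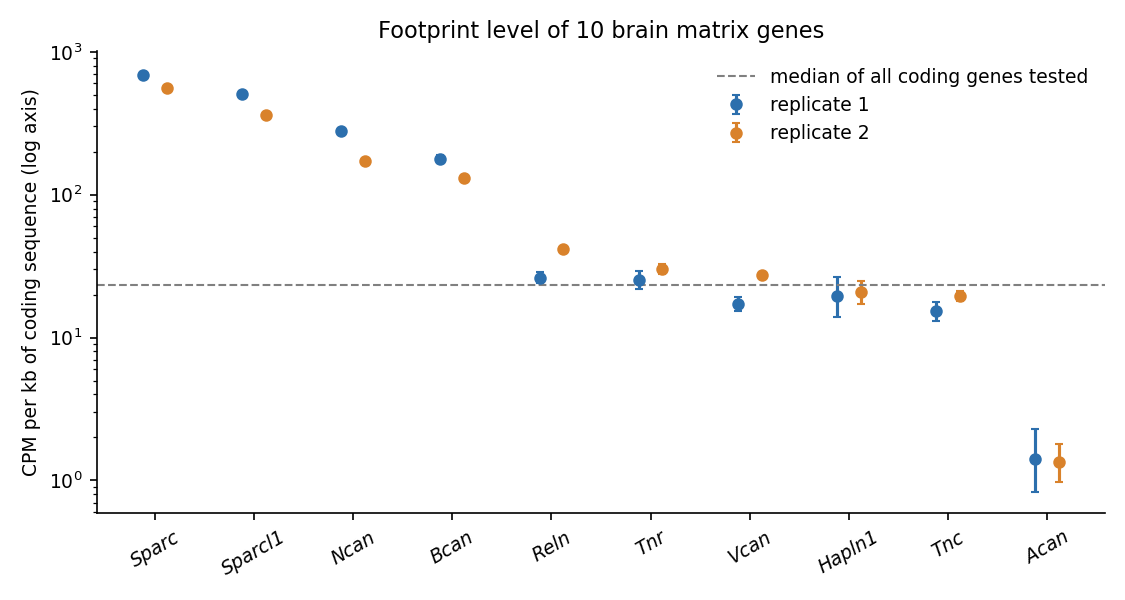
Footprint level of the 10 genes in each replicate, as CPM per kb of longest coding sequence on a log axis, with 95% exact intervals for counting error and the median of all coding genes tested as a dashed line. Sparc, Sparcl1, Ncan and Bcan lie far above the line, 5 genes lie near it, and Acan lies far below it at 1.42 and 1.34 CPM per kb.

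Among the lecticans, the chondroitin sulfate proteoglycans of the hyaluronan matrix, neurocan and brevican carried most of the footprints and aggrecan almost none. Ncan (ENSMUSG00000002341), whose proteoglycan is made mainly by neurons and astrocytes of the developing brain, had 1982 and 3441 footprints in replicates 1 and 2. Per kilobase it reached 279 and 172 CPM per kb, a mean of 225 ± 75.7 (SD, n = 2) at percentile 94.2 of coding genes. Bcan (ENSMUSG00000004892), the brevican of glial surfaces and synapses, had 881 and 1820 footprints and a level of 178 and 130.4 CPM per kb (154 ± 33.6, percentile 90.3). Its percentile was 91.7 in replicate 1 and 88.3 in replicate 2. With protein-coding transcripts alone its mean level was 83.3 CPM per kb. Ncan was above Bcan within each animal, by 1.57 times in replicate 1 and 1.32 times in replicate 2. Across animals the ranges of both genes overlapped, since Ncan in replicate 2 was below Bcan in replicate 1.

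Versican and aggrecan followed at a distance. Vcan (ENSMUSG00000021614), which also occurs outside the nervous system and has splice forms with different numbers of chondroitin sulfate chains, had 325 and 1454 footprints and a level of 17.3 and 27.5 CPM per kb (22.4 ± 7.18, percentile 48.6). Its coding sequence of 10065 nucleotides is longer than that of 99.5% of the coding genes, so its footprint count places it higher than its level does. Acan (ENSMUSG00000030607), the aggrecan of cartilage and of mature perineuronal nets, had 17 and 45 footprints on 6399 coding nucleotides. Its level of 1.42 and 1.34 CPM per kb (1.38 ± 0.0612) was the lowest of the 10 in both libraries. It stood at percentile 1.81 of the coding genes whose mean count reached 10. At so low a level that filter leaves out genes with shorter coding sequences, such as the hyaluronan synthase gene Has1 at 1.25 CPM per kb. Per kilobase, Ncan exceeded Acan by 196 times in replicate 1 and 128.5 times in replicate 2, and Vcan exceeded Acan by 12.2 and 20.5 times.

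Between the replicates the share of the lectican footprints was similar for Bcan, fell for Ncan and rose for Vcan. Of all lectican footprints Ncan held 61.8% in replicate 1 and 50.9% in replicate 2, and Bcan 27.5% and 26.9%. Vcan held 10.1% and 21.5%, and Acan 0.530% and 0.666%. Ncan was the largest and Acan the smallest in both animals, in the same order as per kilobase.

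Hapln1 (ENSMUSG00000021613), the cartilage link protein that also stabilises lectican binding to hyaluronan in brain, had 39 and 117 footprints. On its short coding sequence of 1071 nucleotides this was 19.5 and 20.8 CPM per kb (20.1 ± 0.888, SD, n = 2, percentile 45.8). It was thus 13.7 and 15.5 times the level of Acan. Vcan was lower than Hapln1 in replicate 1 and higher in replicate 2, 1.11 times its level in the means. That ratio depends on the length used: Vcan was 4.25 times Hapln1 with the longest transcript as the length (18.1 against 4.27 CPM per kb), 3.60 times with each coding transcript over its own coding length (72.5 against 20.1), 1.65 times with a count-weighted coding length, and 0.411 times with the highest transcript alone (8.27 against 20.1).

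Each lectican gene lies beside a link protein gene in the genome, with 0 protein-coding genes between them in the RefSeq annotation. Over their longest coding sequences the members of these pairs stood at different levels, apart from Vcan and Hapln1, whose ratio turns with the length used as given above. Ncan was 26.1 and 29.4 times the level of its neighbour Hapln4, a link protein of later-forming nets, which had 24 and 37 footprints and 8.27 ± 3.42 CPM per kb. Bcan's neighbour Hapln2, known from nodes of Ranvier, had 0 and 5 footprints. Vcan was 0.887 and 1.32 times the level of Hapln1. Acan was the lower member of its pair, at 0.143 and 0.169 times the level of Hapln3, which had 20 and 45 footprints.

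The tenascins, glycoproteins with arms of fibronectin repeats, stood near the median of coding genes. Tnc (ENSMUSG00000028364), made by radial glia and astrocyte progenitors, had 181 and 651 footprints and a level of 15.3 and 19.5 CPM per kb (17.4 ± 2.99, SD, n = 2, percentile 41.8). Tnr (ENSMUSG00000015829), made by cells of the oligodendrocyte lineage and some interneurons, had 193 and 645 footprints and a level of 25.4 and 30.1 CPM per kb (27.7 ± 3.33, percentile 54.8). Their counts were nearly equal, so Tnr's level was 1.66 and 1.54 times that of Tnc through its shorter coding sequence of 4077 against 6333 nucleotides. The replicates of the pair did not overlap.

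Reln (ENSMUSG00000042453), the signal secreted by Cajal-Retzius cells, interneurons and cerebellar granule cells that guides neuron positioning, had 510 and 2271 footprints. Spread over 10386 coding nucleotides this was a level of 26.3 and 41.6 CPM per kb (33.9 ± 10.8, SD, n = 2, percentile 60.3). Reln had 13.1 and 19.4 times the CPM of Hapln1 but 1.35 and 2.00 times its level per kilobase. By this level Reln was the highest of the 10 genes after the leading 4 in both libraries. That rank depends on the counting: by mean level Reln was 7 of the 10 with protein-coding transcripts alone (21.2 CPM per kb). It was also 7 with the highest transcript alone, and 8 with each coding transcript over its own coding length.

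Per kilobase the SPARC family had the highest levels of the 10 genes. Sparc (ENSMUSG00000018593), a small collagen-binding matricellular protein of glia and vessels, had 1161 and 2663 footprints on 909 coding nucleotides, a level of 684 and 557 CPM per kb (620 ± 90.1, SD, n = 2, percentile 99.0). Sparcl1 (ENSMUSG00000029309), or hevin, an astrocyte protein that promotes excitatory synapses, had 1842 and 3725 footprints and 505 and 362 CPM per kb (434 ± 101, percentile 98.0). By CPM Sparcl1 was the higher, at 987 and 708 against 622 and 506, and per kilobase Sparc was, by 1.35 and 1.54 times. The direction per kilobase depends on the length used: Sparcl1 was above Sparc with each coding transcript set over its own coding length (581 against 519 CPM per kb), with the longest transcript as the length (307 against 245), and with the highest transcript alone (349 against 168).

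By mean level the order was Sparc, Sparcl1, Ncan, Bcan, Reln, Tnr, Vcan, Hapln1, Tnc and Acan. The replicates gave the same ranks except that Vcan and Hapln1 changed places. Between neighbours in this order the ranges of the replicates did not overlap for Sparc and Sparcl1 (1.43-fold in the means), Sparcl1 and Ncan (1.93-fold), Bcan and Reln (4.54-fold), and Tnc and Acan (12.6-fold). The other neighbours overlapped: Ncan and Bcan, Reln and Tnr, Tnr and Vcan, Vcan and Hapln1, and Hapln1 and Tnc. With n = 2 a permutation test could not reach 0.05, so no p-value is given for the order. In all 7 ways of setting length and scale Sparc, Sparcl1, Ncan and Bcan were the 4 highest and Acan was the lowest. Of these 7, Ncan was above Bcan in 6, Tnr above Tnc in 6, Sparc above Sparcl1 in 4, and Reln above Tnr in 4.

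The annotated transcripts show where a gene's footprints were placed, but transcripts of a gene overlap. Fragments shared by several transcripts appear to have been divided among them: in replicate 2 the median count of the highest transcript was 217 for genes with 1 transcript, 120.5 for genes with 5 and 98 for genes with 10, while the median gene count rose from 217 to 311 and 414. Transcript shares below are therefore shares of the deposited counts and not isoform abundances. Ncan, Acan and Hapln1 had 1 annotated transcript each, so they have no such split.

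Footprints on transcripts annotated as non-coding were a large share of 3 genes. In Bcan the protein-coding transcripts held 55.1% of footprints in replicate 1 and 52.6% in replicate 2, and retained-intron transcripts 44.9% and 47.4%. In Reln protein-coding transcripts held 59.8% and 64.3%, and retained-intron transcripts 35.9% and 31.5%. In Sparc protein-coding transcripts held 71.1% and 70.2%, and the rest were processed transcripts. In Tnr the coding share was 92.7% and 95.2% and in Vcan 96.3% and 98.5%, while Tnc and Sparcl1 had coding transcripts alone. These non-coding annotations share exons with the coding ones, and the split of footprints between shared and own sequence was not analysed here.

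**Figure D2:**
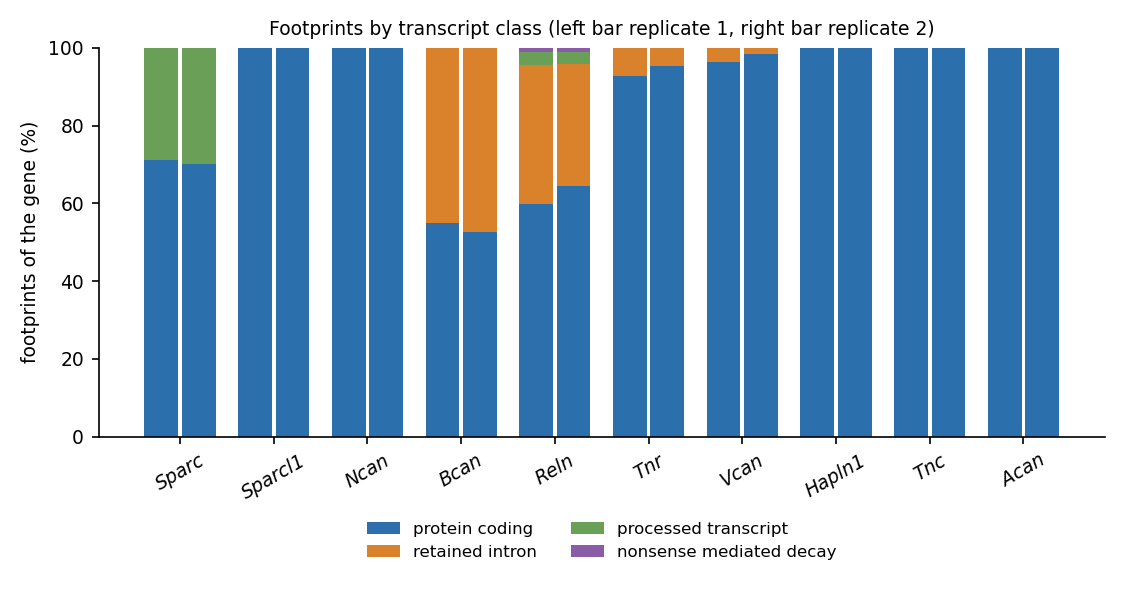
Percent of each gene's footprints by the class of the annotated transcript, with replicate 1 as the left bar and replicate 2 as the right bar of each gene. Bcan, Reln and Sparc have large shares on retained-intron or processed transcripts, at closely similar values in both replicates, and the other 7 genes are mostly or wholly protein coding.

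Several members spread over 2 or more transcripts of like count. Bcan-001, the full-length brevican transcript, held 47.5% ± 1.52 of Bcan footprints (SD, n = 2), and the retained-intron transcript Bcan-006 held 26.4%. Reln-001 and Reln-002, which encode nearly the same length of 10386 and 10380 nucleotides, held 31.2% and 30.9%, and the retained-intron transcript Reln-008 held 10.8%. Sparc-001 and Sparc-002, at 909 and 906 coding nucleotides, held 27.0% and 26.9%, Sparc-003 held 16.8%, and the processed transcripts Sparc-005 and Sparc-006 held 14.8% and 11.4%. The full-length pairs of Reln and Sparc were each split almost evenly. Division of shared fragments would give such a split to transcripts that share most of their sequence, so it does not show equal use of both.

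In the tenascins, Tnr-001 and Tnr-201 encode the same 4077 nucleotides and held 47.3% and 38.0% of Tnr footprints, and Tnr-001 has a 3' untranslated region of 7516 nucleotides. Tnc-201 held 29.8%, and Tnc-001 27.2%. Tnc-002, which has the longest coding sequence of the gene at 6333 nucleotides against 6060 for the others of full length, held 23.8% in replicate 1 and 30.7% in replicate 2. The short transcript Tnc-003 held 19.9% and 11.5%. Sparcl1-001, the full-length form, held 81.8% and 78.4% of Sparcl1, and the short Sparcl1-002 held 18.2% and 21.6%.

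The share of the leading transcript was tested between the libraries for the 7 genes with more than 1 transcript, by Fisher's exact test with Benjamini-Hochberg adjustment over all genes. It passed an adjusted p of 0.05 in 0 of the 7, where 0.178% of the 10129 genes tested passed. At an unadjusted p under 0.05 there was 1, Sparcl1 (exact p = 0.0034, adjusted p = 0.382). A chi-square test over all transcripts also called 0 of the 7, with 3 (Sparcl1, Tnc and Vcan) at an unadjusted p under 0.05 and a lowest adjusted p of 0.113.

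Versican's splice forms differ by 2 long chondroitin sulfate attachment stretches, GAG-α and GAG-β, known as V0 (both), V1 (GAG-β), V2 (GAG-α) and V3 (neither). The coding lengths of 4 Vcan transcripts add up in this way, with 2880 nucleotides for GAG-α and 5217 for GAG-β. Vcan-001, which has both, held 119 and 541 footprints in replicates 1 and 2. Vcan-004, with GAG-β, held 86 and 346. Vcan-006, with GAG-α, held 44 and 311, and Vcan-005, with neither, held 23 and 117. As shares of the gene, Vcan-001 stood at 36.9%, Vcan-004 at 25.1%, and Vcan-006 at 13.5% in replicate 1 and 21.4% in replicate 2. If shared fragments were divided equally, the count of Vcan-001 follows from the other 3 as 107 ± 12.4 in replicate 1 and 540 ± 27.8 in replicate 2 (counting SE), near the 119 and 541 found. The same count would follow if each shared fragment were counted in full for every transcript. The match therefore does not test the equal division, on which the levels below rest.

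Under the same assumption GAG-α carried 7.81 ± 3.04 CPM per kb in replicate 1 and 25.6 ± 2.73 in replicate 2 (counting SE). GAG-β carried 12.9 ± 2.14 and 16.7 ± 1.57. GAG-α was thus the lower stretch in replicate 1 and the higher in replicate 2, and its share of the footprints on both was 25.0% ± 7.13 and 45.9% ± 3.03. This comparison was made after the values were seen and was not tested. The transcripts also differ in their untranslated regions, and the 5 other Vcan transcripts were not part of it.

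**Figure D3:**
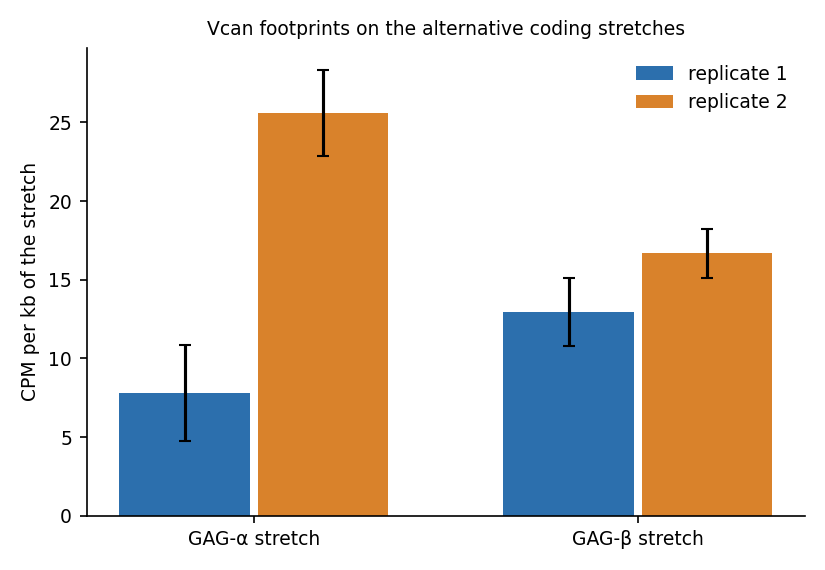
Footprint level of the 2 alternative coding stretches of Vcan in CPM per kb of the stretch, by replicate, assuming that shared fragments were divided equally among transcripts. Bars start at 0 and error bars are the counting SE; GAG-α goes from 7.81 to 25.6 and GAG-β from 12.9 to 16.7.

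Between the 2 libraries the leading genes were lower in replicate 2, and Vcan and Reln were higher. In an exact binomial test of each gene's 2 counts against the TMM-scaled library sizes, adjusted by Benjamini-Hochberg over 16427 genes, 6 of the 10 passed an adjusted p of 0.05 (here called), where 17.4% of all genes did. Of these, 2 were higher in replicate 2, against 5.95% of all genes, and 4 were lower, against 11.5%. Calls grow with depth, and the members are deep: of genes averaging 500 counts or more, 52.9% were called and so were 6 of 6 members. At 100 to 500, 23.7% of genes and 0 of 2 members were called, and at 10 to 100, 5.49% and 0 of 2. The test compares 2 libraries of the same group and not conditions. With edgeR's exact test, which adds a spread estimated between the same libraries (a coefficient of variation of 0.167), 0 of the 10 were called and 1 had an unadjusted p under 0.05, with 11 of 16427 genes called in all.

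Ncan fell by the most, from 1062 to 653.9 CPM. Its TMM-scaled log2 ratio of replicate 2 over replicate 1 was -0.82 (95% exact interval -0.91 to -0.74, adjusted p = 3.5e-83 in the exact binomial test). The ratios here use TMM-scaled library sizes, whereas CPM use library totals. On library totals the log2 ratio was -0.70 for Ncan, 0.66 for Vcan and 0.66 for Reln. Sparcl1 had a ratio of -0.60 (-0.69 to -0.52, adjusted exact p = 3.72e-44), Bcan -0.57 (-0.69 to -0.46, adjusted exact p = 3.92e-19) and Sparc -0.42 (-0.52 to -0.32, adjusted exact p = 2.45e-14). Vcan rose from 174 to 276 CPM, with a TMM-scaled log2 ratio of 0.54 (0.37 to 0.72, adjusted exact p = 1.05e-08). Reln rose from 273 to 432 CPM, with a TMM-scaled ratio of 0.53 (0.39 to 0.67, adjusted exact p = 3.67e-13). The 4 that did not pass were Tnc at 0.22 (-0.01 to 0.47), Tnr at 0.12 (-0.11 to 0.36), Hapln1 at -0.04 (-0.57 to 0.53) and Acan at -0.21 (-1.05 to 0.68). The intervals of Hapln1 and Acan reach about as far as the ratios of Bcan and Reln, so differences of that size were not detectable at their depth. The median log2 ratio of the 10 was -0.12 against 0.01 over all genes, and the median absolute ratio 0.48 against 0.29.

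Over all genes the ratio fell with footprint density, the footprints per nucleotide of transcript (Spearman's rho -0.22 across 16427 genes, and -0.50 across the 10 members, which share their libraries). With the trend at each gene's density removed, 5 of the 10 were called, against 16.1% of all genes. Sparc was no longer called, with a ratio of -0.04 (adjusted exact p = 0.744), and its density is among the highest. Relative to the trend Ncan stood at -0.58, Bcan at -0.31 and Sparcl1 at -0.18, and Vcan and Reln at 0.53 and 0.57. The ratio also rose with coding length across the 10 (rho 0.66), more than across 13349 coding genes (0.16), with Vcan and Reln the longest.

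**Figure D4:**
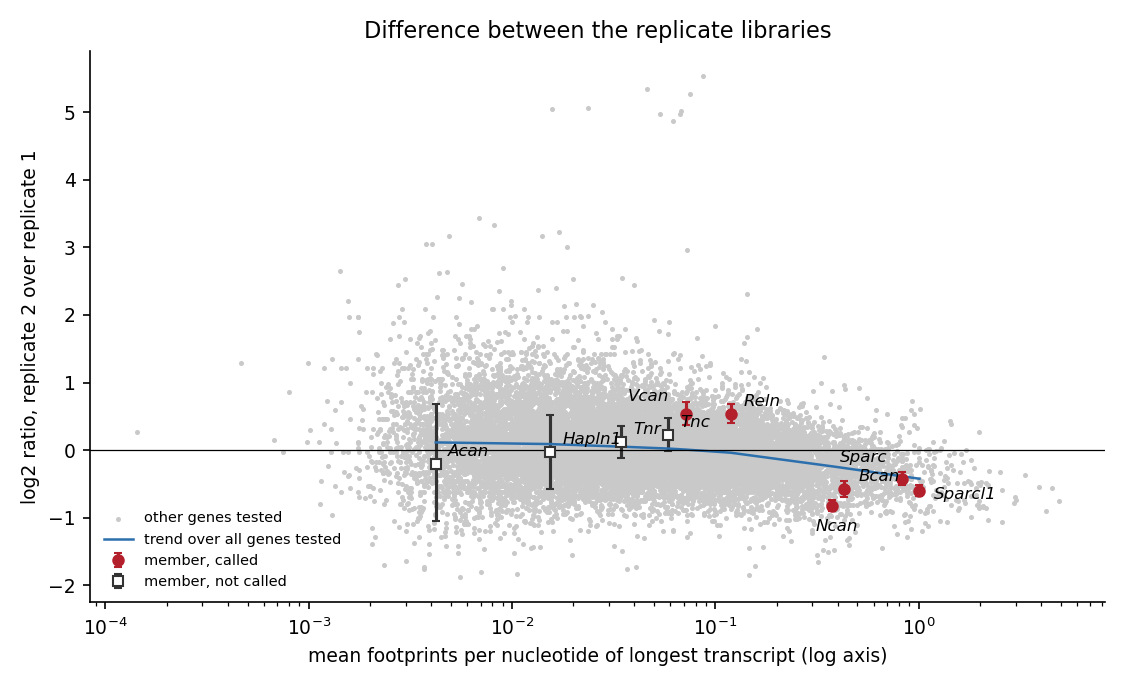
Log2 ratio of replicate 2 over replicate 1 against the mean footprints per nucleotide of the longest transcript (log axis), for the 10 members with 95% exact intervals, the other genes tested in grey, and the trend over all genes as a line. Ncan and Bcan lie below the trend, Sparc lies on it, and Vcan and Reln lie above it at 0.54 and 0.53.

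Cell type markers differed between the libraries as well in the exact binomial test, whereas with edgeR's exact test 0 were called in each of the 12 lists. Their counts are to be read against the 11.5% of all genes called lower and 5.95% called higher. For genes averaging 500 counts or more, the share called in either direction was 52.9%. Precursors of oligodendrocytes, which express Bcan, Ncan and Tnr among others, had 5 of 6 markers lower in replicate 2 and summed to 692 and 519.6 CPM, with Olig1 highest and 1 of the 6 averaging 500 counts or more. Oligodendrocyte markers had 4 of 6 higher, at 647 and 991 CPM, with Mbp highest and 3 of the 6 as deep as that. Neuron markers had 5 of 8 lower and 0 higher, all 8 of that depth. Astrocyte and radial glia markers had 4 of 10 lower and 0 higher, 9 of that depth. Counted in either direction, both are near the 52.9% of genes so deep, whose share called lower alone was not computed. Inhibitory neuron markers had 5 of 7 lower (1007 and 739 CPM, Sst highest), 3 of that depth. With the highest transcript per gene 1 of the 6 oligodendrocyte markers was called higher. In that setting 3 precursor, 5 neuron, 4 inhibitory neuron and 4 astrocyte markers were called lower. With library totals 3 of the 6 precursor markers were called lower, and 2 of the astrocyte markers were called higher and 3 lower. With the density trend removed 1 astrocyte marker was called higher and 1 lower. In that setting 5 precursor, 4 neuron and 5 inhibitory neuron markers were called lower, with 1 neuron marker higher, and 5 oligodendrocyte markers were called higher. Of cells that make reelin, Cajal-Retzius markers summed to 219 and 241 CPM with 1 of 5 higher and 1 lower (Calb2 highest), and cerebellar granule cell markers to 470 and 571 CPM with 2 of 6 tested higher. Their part in the differences of the members was not tested.

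Cells around the brain and blood gave further values. Meningeal fibroblast markers summed to 1747 and 1612 CPM (1 of 8 higher, 4 lower, or 2 lower with library totals, Ptgds highest). With the density trend removed 2 of them were called higher and 1 lower, and Ptgds went from called lower to called higher. Endothelial and mural markers, which mark vessels that also make Sparc, summed to 408 and 379 CPM (1 of 8 lower, with 2 higher as well under library totals). Microglia markers summed to 233 and 238 CPM (1 of 6 higher, 2 lower, or 0 lower with library totals), choroid plexus markers to 657 and 365 CPM (1 of 6 lower, Ttr highest), and red blood cell markers to 2484 and 1702 CPM (4 of 5 lower, or 1 with the density trend removed). Their part in the differences of the members was likewise not tested.

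The 10 genes were set beside 118 other matrix and signalling genes in 9 lists. Of the 112 tested, 20 were called between the libraries (3 higher, 17 lower), or 17.9%, near the 17.4% of all genes, with a median log2 ratio of -0.13. The split depends on the scaling. With library totals in place of TMM 21 were called, 12 higher and 9 lower, where 19.0% of all genes were called. With the density trend removed 26 of the 112 were called, 8 higher and 18 lower, where 16.1% of all genes were called. By level, 7 of the 112 were above Ncan. With edgeR's exact test 0 were called, with 2 at an unadjusted p under 0.05. Calls in the single lists below are to be read against the 11.5% of all genes called lower and 5.95% called higher. Among genes averaging 500 counts or more, 52.9% were called in either direction.

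**Figure D5:**
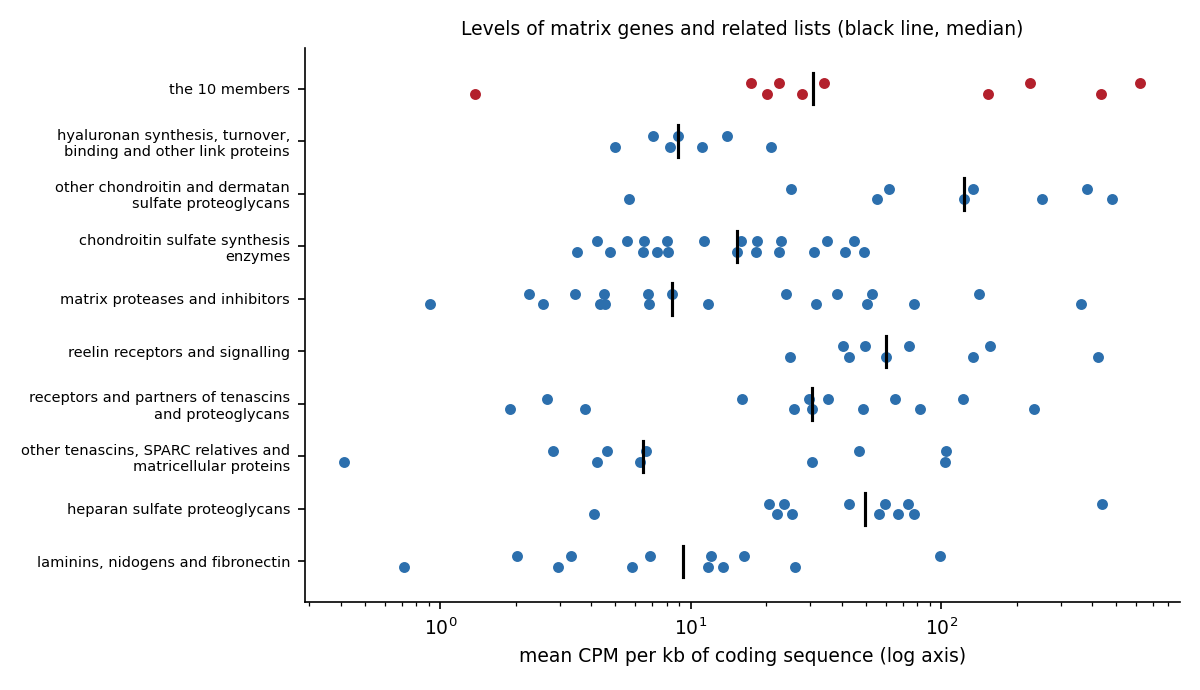
Mean level in CPM per kb of coding sequence (log axis) of each gene tested in the members and in 9 related lists, with the median of each list as a black line. Sparc is the highest gene shown and the other chondroitin and dermatan sulfate proteoglycans have the highest median, 122.6 CPM per kb.

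For hyaluronan, which anchors the lecticans, footprints on the synthases were few: Has1 had 5 and 9, Has2 3 and 9, and Has3 34 and 98. The list of hyaluronan genes and other link proteins had a median level of 8.92 CPM per kb, led by the hyaluronidase Hyal2 at 20.9 and the receptor Cd44 at 13.9, and 0 of its 7 genes tested were called in the exact binomial test, with 1 at an unadjusted p under 0.05. With the density trend removed 1, Hapln4, was called lower. The enzymes of chondroitin sulfate synthesis, which build the sugar chains of the lecticans, had a median of 15.3, led by Chpf (49.3) and B3galt6 (44.6). There 3 of 21 were called, all lower (1 with library totals), and Csgalnact1, which starts the chain, had the largest change at a log2 ratio of -1.11 (32 and 44 footprints, adjusted exact binomial p = 0.00699).

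The other proteoglycans reached the range of Ncan and Bcan. Spock2 (482 ± 97.3 CPM per kb, SD, n = 2), a testican, and Cspg5 (382 ± 51.1), or neuroglycan C, were the highest of the list, and of its 9 genes 2 were called higher (Spock3 and Dcn) and 4 lower, or 3 higher and 2 lower with library totals. Of the 9 genes, 5 averaged 500 counts or more, and 4 of these 5 were called. Heparan sulfate proteoglycans had a median of 49.6 CPM per kb, with the syndecans Sdc3 at 438 and Sdc2 at 77.5, and 2 of 12 were called lower. Of proteases and inhibitors, which remodel the lecticans, Timp2 (360) and Timp3 (142) were highest against a median of 8.40, and 4 of 19 were called lower.

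The partners of the signalling members were present. Of the reelin pathway, whose list had a median of 60.1 CPM per kb, the receptors Vldlr and Lrp8 stood at 49.6 and 40.4 and the adaptor Dab1 at 42.9, beside Reln at 33.9. Pafah1b1 (420) and the kinase Fyn (157) were its highest. In the exact binomial test 0 of its 9 genes were called and 1 had an unadjusted p under 0.05, but 3 (Fyn, Pafah1b1 and Src) were called higher with library totals and 2 (Fyn and Pafah1b1) with the density trend removed. Of receptors and partners of tenascins and proteoglycans, the neural adhesion molecule Cntn1 (233), which binds tenascin-R, and Ptprs (122), a receptor for chondroitin sulfate, were highest against a median of 30.5, and 3 of 13 were called lower, or 3 higher and 1 lower with library totals.

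Relatives of the tenascins and SPARC had a median of 6.41 CPM per kb, led by the follistatin-like Fstl1 (104.7) and the matricellular Nov (103.5), both below Sparc and Sparcl1, and 1 of 10, Nov, was called lower, or 0 with library totals, where 1 had an unadjusted p under 0.05. Laminins and nidogens, proteins of basement membranes, were listed together with fibronectin and vitronectin (Vtn). This list had a median of 9.27, led by Vtn (99.1) and Nid1 (25.9), and 1 of 12, Lamb1, was called higher, or 3 (with Lama2 and Fn1) with library totals.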

How the data were processed

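Polysome footprints of 2 control mouse brains at postnatal day 5 were analysed. The values are raw counts that the authors deposited, 1 column per replicate and 1 row per transcript, and with transcript, coding and untranslated lengths. Per the submitters' processing notes, Trimmomatic 0.36, Bowtie2 2.2.6, SAMtools and GRCm38.p4 were used, with no roles given. The annotation release and the handling of shared fragments, strand and duplicates are not given in the sources used here. Symbols were read from transcript names, counts were summed per gene, and 10 of 10 members matched RefSeq symbols of assembly GRCm38.p6, used for names and gene neighbours alone.

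CPM used library totals. Genes averaging 10 counts or more entered the tests. The 2 counts were compared by the exact binomial test (SciPy 1.17.1) with TMM sizes (edgeR 4.0.16, R 4.3.3), and transcript shares by Fisher's exact test, with Benjamini-Hochberg adjustment and a threshold of 0.05. With 1 group, edgeR's quasi-likelihood test could not be fitted. DESeq2 1.42.0 gave alternative size factors. Named were all members, their transcripts with at least 10% of footprints or the longest coding sequence, and in each related list the 2 highest genes and any called with an absolute log2 ratio of at least 1. Has1 to Has3, Vldlr, Lrp8, Dab1, Src, Spock3, Dcn, Lamb1, Lama2, Fn1 and the neighbouring link proteins were named in addition, with values seen. The scripts were tested on simulated data. The members and lists were chosen with earlier results of these data known.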

Additional observations from a re-analysis of the deposited data

How the results depend on the processing

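The members' share of footprints, 0.351% as reported, was 0.301% with protein-coding transcripts in the numerator, 0.220% with the highest transcript per gene, and 0.399% with protein-coding transcripts in numerator and denominator, and ranged from 0.320 to 0.382% with either replicate left out. Their median level, 30.8 CPM per kb, was 16.6 with the highest transcript and 60.8 with each coding transcript over its own coding length, and ranged from 25.8 to 35.8 with either replicate left out. The transcript and length settings change which footprints or lengths enter, while the ranges are values of the single libraries. What lay behind the shifts was not tested. The count of members called, 6 where 17.4% of all genes were called, became 0 with edgeR's exact test (0.0670% of all genes), 7 with library totals (19.0%, adding Tnc, adjusted exact p = 0.0236) and 5 with the density trend removed (16.1%). It was 6 with DESeq2 size factors (17.4% of all genes), without a filter on low counts (9.93%), with a minimum mean of 50 counts (26.8%) and with the highest transcript (9.41%). The count of related genes called, 20 of 112, became 0 with edgeR's exact test (0.0670% of all genes). It became 9 of 108 with the highest transcript (9.41%) and 26 of 112 with the density trend removed (16.1%). The ratio of Hapln1 changed sign from -0.04 to 0.0879 with library totals and 0.0363 with the highest transcript. TMM scaling moved all log2 ratios by -0.13 against library totals, and the share of all calls that were higher in replicate 2 was 34.2% with TMM, 60.7% with library totals, 17.6% with the highest transcript and 45.02% with the trend removed. Of 60 alternative levels of single members that keep both replicates, 22 moved by more than 1 SD. No paired analysis was possible because there is only 1 group. With 17 and 45 footprints on Acan and 39 and 117 on Hapln1, depth limits these genes most.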
